A study of Neurospora crassa with 84 samples.

Results

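The effect of light on the unfertilized wild type of Neurospora crassa, a filamentous fungus, was followed in 18 of the 84 libraries of the series. They were chosen by their titles: wild-type cultures sampled 2 days before fertilization (day -2), 1 day before it (day -1) and on the day of fertilization before any male cells were applied (day 0). Light and dark had 9 libraries each, 3 on each day. The light libraries came from strain OR74A, mating type A, kept under constant lamp light, and the dark libraries from the same strain kept in darkness. All cultures grew on synthetic crossing medium, whose low nitrogen brings out the protoperithecia (the female organs before fertilization), and the surface of the plate was scraped off and frozen. The scraped tissue therefore holds hyphae, protoperithecia and any asexual spores (conidia) together, and in such bulk samples fewer cells of a type and less RNA per cell cannot be told apart. For comparison, the series holds 18 libraries of the unfertilized ∆ve-1 mutant, also mating type A, which lacks the gene of a velvet protein, and 24 libraries of the wild type on days 1, 2, 4 and 6 after fertilization, all in the same pair of light conditions. The wild type was fertilized with conidia of mating type a. Tissue of biological replicates had been pooled for RNA extraction, so p-values measure only the spread between these libraries.

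Light reaches Neurospora genes mainly through the white collar complex, in which the blue-light photoreceptor WC-1 and its partner WC-2 bind promoters and switch on transcription. One of the targets, the photoreceptor VIVID, binds back to the complex and dampens it, so that cultures in constant light settle at an adapted level of expression. Among the best known targets are the genes of carotenoid synthesis, which color the mycelium and conidia orange, the clock gene frq and genes of conidiation. Light also bears on the sexual cycle, and the necks of the fruiting bodies grow toward it.

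The 18 libraries held between 15.3 and 17.6 M counts each (M, 1e6), and light and dark overlapped in depth. Values are CPM, counts per 1e6 scaled by TMM, and for each side of 9 libraries the lowest, the median and the highest are given. Pearson correlations of log2 CPM between replicates, which are across genes, ran from 0.948 to 0.991. The first principal component held 60.7% of the variance and placed all 9 light libraries (26.7 to 54.0) apart from all 9 dark libraries (-56.4 to -18.5). The dark library nearest to light was replicate 1 of day -2, which stood apart from the other 8. A set of 6 markers of conidia and conidiophores summed to 34732 to 78530.1 CPM in light, and in the dark to 25968 CPM in that library and 1207 to 3051 CPM in the other 8. Most of the sum in that library was the marker eas, at 24004 CPM. The marker con-8, at 1086 CPM there, lay within the 528 to 1513 CPM of the other 8. In light the median of eas was 46432 CPM and that of the sum 62103 CPM. A set of 6 markers of sexual tissue summed to 1691 to 7011 CPM in light and 418 to 5918 CPM in the dark, ranges that overlap, and none of the 12 markers was at 0 in every library. The sexual markers differed in direction. Their log2 fold changes of light over dark were 1.26 for poi-2, 0.37 for per-1, -0.17 for fsd-1, -0.77 for gpr-1, -1.05 for asd-1 and -2.83 for T. The part of the conidial tissue in the results was not tested, and the genes in which the dark library of day -2 stood far above the others are given with and without it.

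The photoreceptor genes served as a check of the labels and gave some of the widest differences in the table. The gene vvd (NCU03967, chromosome VI, 2268533 to 2271812, assembly NC12), which encodes VIVID, had 1296, 2885 and 3607 CPM in light, against 9.18, 12.2 and 17 CPM in the dark. Every light library lay far above every dark one, including replicate 1 of day -2 in the dark, and the difference passed the test (log2 fold change 7.75, SE 0.195, adjusted p 2.03e-14). Tests of single genes were edgeR's quasi-likelihood F test on log2 light over dark with the day as a block. In each fit the p-values were adjusted by Benjamini and Hochberg over all genes tested in it, here 8986. A gene was called when its adjusted p was under 0.05 and its absolute log2 fold change above 1. By that rule 1407 genes (15.7%) were called, 617 (6.87%) higher and 790 (8.79%) lower in light, and 5446 (60.6%) passed on the adjusted p alone. No overlap between the 9 light and 9 dark libraries was seen in 1341 genes (14.9%), 565 (6.29%) higher and 776 (8.64%) lower, of which 694 (7.72%) were also called. The median log2 fold change over all genes tested was 0.01. Without replicate 1 of day -2 in the dark, 1509 genes were called, 681 higher and 828 lower.

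Of 9 genes of photoreceptors and light signaling, 4 were higher in light, none was lower and 5 were not called, with a median log2 fold change of 0.97, against 15.7% of all genes called. The cryptochrome gene cry (NCU00582, chromosome I, 7931586 to 7935778) had 373, 661 and 1101 CPM in light, against 5.97, 7.63 and 31.7 CPM in the dark (log2 fold change 5.97, SE 0.356, adjusted p 2.03e-09). Its highest dark value came from replicate 1 of day -2, and even that lay more than 10 times below the lowest light value. Without that library the log2 fold change of cry was 6.35. The photolyase gene phr, whose product repairs DNA damaged by ultraviolet light, had 93.4, 189 and 256 CPM in light, against 39.1, 54 and 62.9 CPM in the dark (log2 fold change 1.80, SE 0.145, adjusted p 4.66e-08), again with no overlap. The opsin gene nop-1 was higher as well, at 183, 496 and 901 CPM in light, against 115, 158 and 214 CPM in the dark (log2 fold change 1.45, SE 0.278, adjusted p 2.67e-04), although its ranges overlapped.

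The subunits of the white collar complex had smaller log2 fold changes than these genes. wc-1 had 69.1, 78.6 and 85.2 CPM in light, against 30.5, 39.3 and 44.9 CPM in the dark, which did not overlap, and its log2 fold change of 0.97 (SE 0.0798, adjusted p 5.60e-08) fell just short of the fold threshold. It was called in 5 of 31 alternative settings, with a log2 fold change between 0.89 and 1.04 over all of them. wc-2 stood at a median of 161 CPM in light, against 133 CPM in the dark, a log2 fold change of 0.27. The phytochrome genes, whose products sense red light, had log2 fold changes of 0.47 for phy-1 and -0.92 for phy-2, and neither was called.

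**Figure D1:**
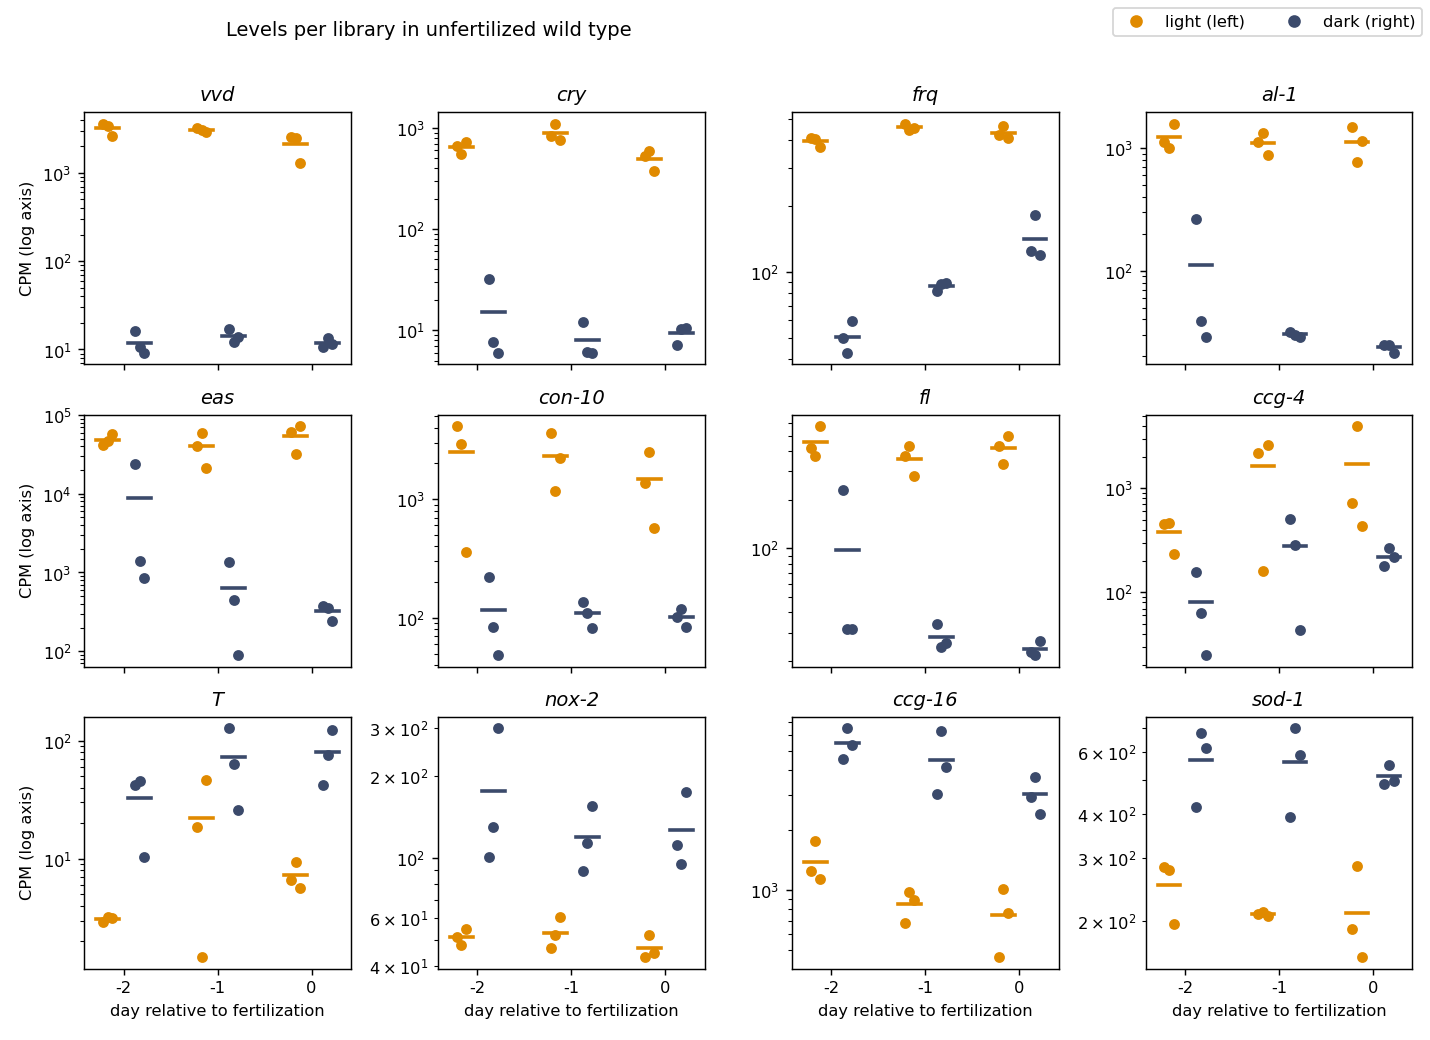
TMM-scaled CPM (log axis) of 12 genes in each of the 18 unfertilized wild-type libraries, by day relative to fertilization. Orange points left of each tick are light libraries, blue points right of it are dark libraries, and bars are means of 3. The light points of vvd lie between 1296 and 3607 CPM on all 3 days, against 9.18 to 17 CPM in the dark, and the highest dark point of eas, fl and al-1 is replicate 1 of day -2.

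In the clock list, frq and csp-1 were called, both higher, and frh and sub-1 were not, against 6.87% of all genes called higher. The clock protein gene frq had 373, 423 and 477 CPM in light, against 42.6, 88.2 and 182 CPM in the dark (log2 fold change 2.33, SE 0.167, adjusted p 1.45e-08), with no overlap. Its light level was 397 ± 20.8, 459.9 ± 15.1 and 432 ± 28.7 CPM on days -2, -1 and 0 (SD, n = 3), while the dark level was 50.6 ± 8.35, 86.2 ± 4.1 and 142 ± 34.6 CPM on the same days (SD, n = 3). The log2 fold change of frq was 2.97 on day -2, 2.42 on day -1 and 1.61 on day 0, and the test of light by day, an F test across the 3 days, gave an adjusted p of 0.0276. In that test no gene passed without replicate 1 of day -2 in the dark, or without the libraries of any 1 replicate number. csp-1, a light-induced transcription factor, stood at 222, 287 and 392 CPM in light, against 89.8, 106 and 289 CPM in the dark (log2 fold change 1.21, SE 0.207, adjusted p 9.75e-05). Its highest dark value reached into the light range, and without replicate 1 of day -2 in the dark the log2 fold change was 1.45.

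Of the 5 genes of carotenoid synthesis, 4 were called, all higher in light, against 6.87% of all genes called higher, with a list median of 2.08. The list was put together with its response to light known, so its direction is no independent evidence. al-2, the phytoene synthase gene of the first committed step, had 645, 791 and 1062 CPM in light, against 50.5, 78.4 and 126 CPM in the dark (log2 fold change 3.30, SE 0.149, adjusted p 9.79e-11). al-1, which encodes phytoene desaturase, was at 769, 1118 and 1591 CPM in light, against 21.3, 28.9 and 266 CPM in the dark (log2 fold change 4.77, SE 0.453, adjusted p 2.31e-07). The highest dark value of al-1 was in replicate 1 of day -2, and without that library its log2 fold change was 5.34. For al-3, which makes the geranylgeranyl diphosphate that enters the pathway, the values were 313, 599 and 1011 CPM in light, against 92.7, 113 and 451 CPM in the dark (log2 fold change 2.08, SE 0.283, adjusted p 9.86e-06), and the ranges overlapped. Its log2 fold change without that library was 2.40.

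The later steps differed from one another. cao-2, which encodes the oxygenase that cleaves torulene, was higher in light by a log2 fold change of 1.10 (SE 0.108, adjusted p 3.36e-07). That call was lost when day -1 was left out, where the log2 fold change was 0.95. ylo-1, the aldehyde dehydrogenase gene of the last step, stood at 144, 158 and 202 CPM in light, against 181, 246 and 287 CPM in the dark, a log2 fold change of -0.52 that missed the fold threshold.

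All 5 structural genes of conidiation were called higher in light, against 6.87% of all genes, with a median log2 fold change of 4.23. The hydrophobin gene eas (NCU08457), whose product coats conidia with water-repellent rodlets, was the most abundant of them at 21051, 46432 and 72692 CPM in light. In the dark it had 24004 CPM in replicate 1 of day -2 and 89.3 to 1415 CPM in the other 8 libraries. The log2 fold change was 5.45 with all libraries (SE 0.966, adjusted p 1.31e-04) and 6.32 without that one. con-6 and con-10, expressed during conidiation, showed no overlap: con-6 had 1052, 5995 and 10172 CPM in light, against 13.5, 59.3 and 374 CPM in the dark, and con-10 had 360.3, 2214 and 4138 CPM in light, against 48.6, 102 and 219.5 CPM in the dark. con-8 differed by a log2 fold change of 2.33 and con-13 by 2.95. One dark library of con-13, again replicate 1 of day -2, lay within the light range at 56.3 CPM. Without that library the log2 fold change was 4.00 for con-13, 6.61 for con-6, 4.44 for con-10 and 2.37 for con-8.

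Of 7 regulators of conidiation, 4 were higher in light and 3 were not called, against 6.87% of all genes called higher. fl, the zinc cluster factor that is needed for conidiophores to bud, had 280.0, 420.0 and 574 CPM in light, against 229.5 CPM in replicate 1 of day -2 and 21.8 to 34 CPM in the other 8 dark libraries (log2 fold change 3.36, SE 0.396, adjusted p 2.28e-06). acon-3 was higher by 2.25, csp-2 by 1.15 and rca-1 by 1.13 on the log2 scale. Without replicate 1 of day -2 in the dark the values were 3.90 for fl, 2.58 for acon-3, 1.28 for csp-2 and 1.25 for rca-1. The calls of csp-2 (log2 fold change 0.94) and rca-1 (0.99) were lost when the libraries numbered 3 were left out. fld, acon-2 and csp-6 had log2 fold changes of 0.17, -0.12 and 0.06, with adjusted p of 0.318, 0.39 and 0.553.

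Genes named for induction by blue light or for control by the clock went both ways: of 9, 1 was higher, 4 were lower and 4 were not called. Of all genes, 6.87% were called higher and 8.79% lower. bli-4 had 167, 460.3 and 1215 CPM in light, against 4.21, 8.03 and 83.5 CPM in the dark (log2 fold change 5.19, SE 0.568, adjusted p 1.04e-06), with a log2 fold change of 5.77 without replicate 1 of day -2 in the dark. Among the clock-controlled genes, ccg-16 stood at 459, 976 and 1764 CPM in light, against 2406, 4166 and 6505 CPM in the dark (log2 fold change -2.14, SE 0.18, adjusted p 6.92e-08). ccg-7, the gene of the glycolytic enzyme glyceraldehyde-3-phosphate dehydrogenase, had 828, 1054 and 1270.1 CPM in light, against 1667, 3430.0 and 3929 CPM in the dark (log2 fold change -1.61, SE 0.15, adjusted p 1.96e-07). ccg-1 and ccg-9 were lower too, by log2 fold changes of -1.40 and -1.16. Neither ccg-16, ccg-7 nor ccg-1 showed any overlap between light and dark.

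Genes of mating and female development were called about as often as genes in general or less, at 1 of 8, 1 of 10 and 0 of 5 against 15.7% of all genes tested. In the list of pheromones, receptors and mating type, ccg-4 alone of 8 was called. It encodes the pheromone precursor of mating type A and had 161, 459 and 3973 CPM in light, against 25, 178 and 509.8 CPM in the dark (log2 fold change 2.58, SE 0.568, adjusted p 8.85e-04). On days -2 and 0 every light library lay above every dark one, and on day -1 a light library at 161 CPM lay below dark libraries at 286 and 509.8 CPM. The other pheromone precursor gene, mfa-1, was at 10.2 to 17.8 CPM in light, against 15.4 to 38.1 CPM in the dark, a log2 fold change of -0.90 (adjusted p 6.95e-04). The receptor genes pre-1 and pre-2 had log2 fold changes of 0.34 and -0.40.

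Of 10 regulators of female development, bek-1 was called higher (log2 fold change 1.24, SE 0.212, adjusted p 9.72e-05) at a low level of 2.22 to 3.44 CPM in light, against 0.561 to 1.9 CPM in the dark. pp-1, a transcription factor needed for protoperithecia, had 260.2, 313 and 379 CPM in light, against 385, 462 and 537 CPM in the dark, which did not overlap, with a log2 fold change of -0.53 (adjusted p 1.11e-04). None of 5 genes of sexual tissue was called. poi-2, known from perithecial development, ran from 1425 to 6593 CPM in light and from 105 to 5499 CPM in the dark, with a log2 fold change of 1.26 (SE 0.60, adjusted p 0.0781).

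Differences in the kinase and cell fusion genes stayed below the fold threshold. None of 10 MAP kinase module genes was called, against 15.7% of all genes tested, a share at which few of 10 would be. On the adjusted p alone 5 lower and 2 higher passed, a rule that 29.9% and 30.7% of all genes met. mak-1, the kinase of the cell wall integrity pathway, had 203, 232 and 264 CPM in light, against 291, 315 and 351 CPM in the dark, which did not overlap (log2 fold change -0.49, SE 0.0603, adjusted p 3.19e-06). mak-2, the kinase of the pheromone response pathway, was at 620.4 CPM in light (median), against 798 CPM in the dark (log2 fold change -0.40, SE 0.0895, adjusted p 0.00105). Of 12 hyphal fusion genes none was called either, and 8 lower and 2 higher passed on the adjusted p alone. The velvet genes ve-1 and lae-1 were not called, with log2 fold changes of -0.12 and -0.47.

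Tyrosinase, nitrite reductase and oxidant enzymes were among the genes lower in light. T, the tyrosinase gene, had 1.47, 5.67 and 46.6 CPM in light, against 10.4, 45.8 and 127 CPM in the dark (log2 fold change -2.83, SE 0.524, adjusted p 2.00e-04). On days -2 and 0 every light library lay below every dark library of the same day, and on day -1 the ranges overlapped. The polyketide synthase gene per-1 of perithecial melanin was not called (log2 fold change 0.37, SE 0.442, adjusted p 0.491). Of 9 genes of reactive oxygen, nox-2 and sod-1 were lower, cat-4 was higher and 6 were not called, against 15.7% of all genes called. nox-2, an NADPH oxidase gene, had 43.1, 51.2 and 60.3 CPM in light, against 89.2, 114 and 299 CPM in the dark (log2 fold change -1.46, SE 0.192, adjusted p 6.83e-06). sod-1, for copper-zinc superoxide dismutase, stood at 158, 209 and 285 CPM in light, against 393, 549.9 and 699 CPM in the dark (log2 fold change -1.29, SE 0.136, adjusted p 6.99e-07). The 9 light values of both genes lay below all 9 dark values. cat-4, a catalase gene, went the other way, with 49.6 CPM in light (median), against 17.2 CPM in the dark (log2 fold change 1.31, SE 0.208, adjusted p 4.50e-05). In the nitrogen list, nit-6 for nitrite reductase was the 1 of 6 called, a share near the 15.7% of all genes, and was lower by a log2 fold change of -1.54 (adjusted p 0.00386).

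Larger gene groups were taken whole from the annotation by their symbols. Of 25 DNA repair genes 3 were called, all higher, against 15.7% of all genes tested called in either direction and 6.87% called higher: mus-18, a nuclease gene for ultraviolet damage, at 95.2, 171 and 246 CPM in light, against 25, 35.9 and 64.1 CPM in the dark (log2 fold change 2.16, SE 0.222, adjusted p 5.14e-07), and mus-25 and mus-41 with log2 fold changes of 1.15 and 1.13. On the adjusted p alone 18 were higher and 2 lower, against 30.7% and 29.9% of all genes, and the list's median was 0.49. None of 29 genes of respiratory complex I was called, while 28 were lower on the adjusted p alone, against 29.9% of all genes, with a median of -0.36. No gene among 7 cytosolic ribosomal proteins (median 0.02) or 10 heat shock proteins (median -0.27) was called. Of 73 tested glycoside hydrolases, enzymes that break down or remodel polysaccharides, 8 were higher and 15 lower, against 6.87% and 8.79% of all genes. Their log2 fold changes ran from 3.26 for gh10-4 to -3.15 for gh28-1. The chitinase-family gene gh18-4 was higher by 3.07 while gh18-2 of the same family was lower, at -1.91.

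**Figure D2:**
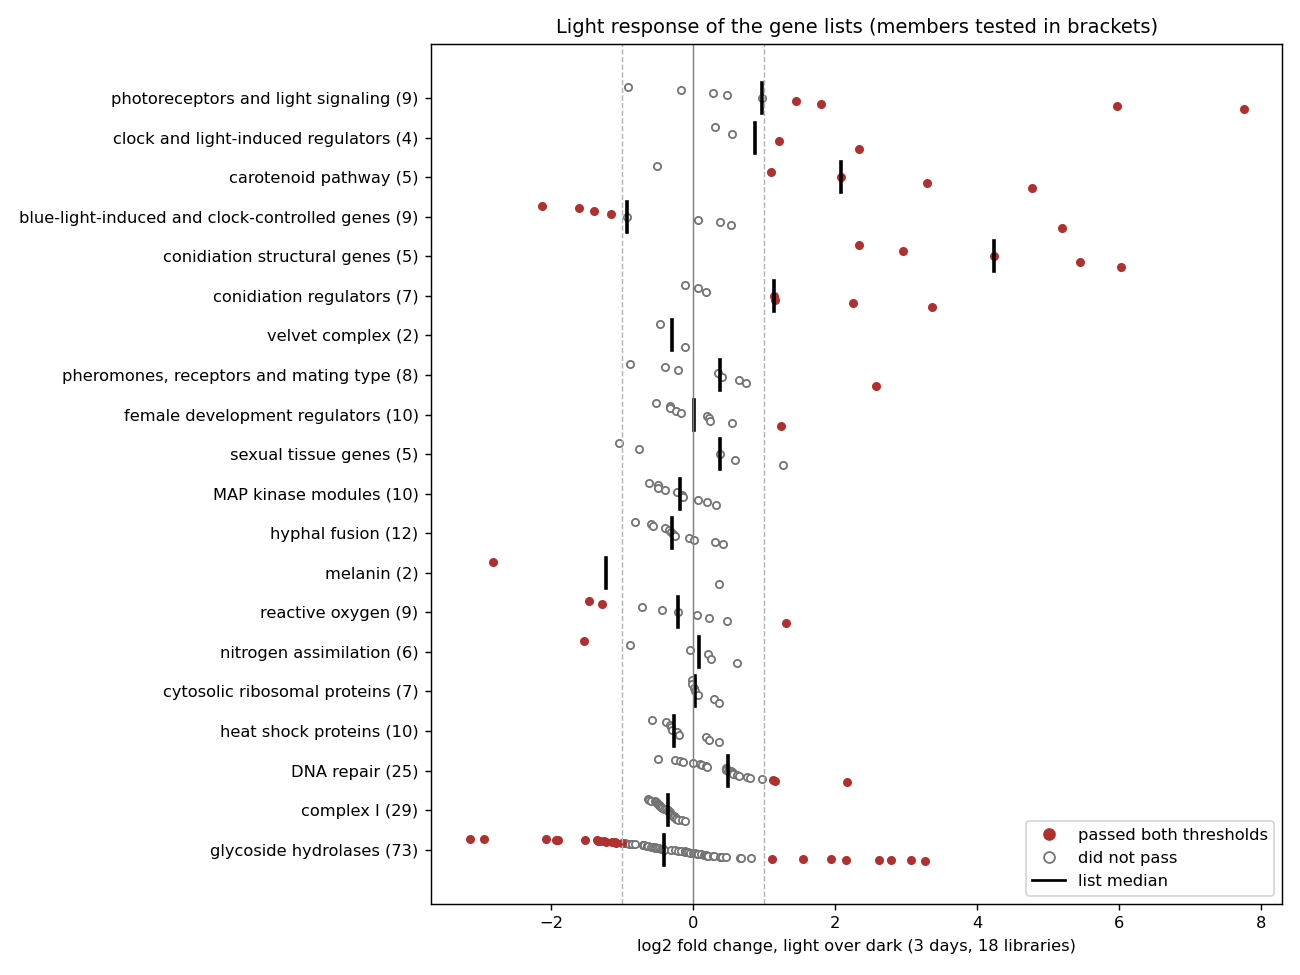
Log2 fold change of light over dark for every tested member of the gene lists, 1 point a gene, with the number tested in brackets. Filled points passed the adjusted p and fold thresholds, open points did not, black bars are list medians and dashed lines mark log2 fold changes of -1 and 1. All 5 conidiation structural genes lie above 1, with a median of 4.23, and the complex I genes gather at a median of -0.36.

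Among genes with no overlap, the 10 with the largest positive log2 fold change were led by NCU17113 (chromosome VI, 2278124 to 2279737), which the annotation describes only as a hypothetical protein. It had 259, 579 and 768 CPM in light, against 0.466, 1.49 and 3.51 CPM in the dark (log2 fold change 8.37, SE 0.354, adjusted p 4.28e-11), and it lies within 7 kb of vvd on the same chromosome. NCU08770, next to con-6 on chromosome III, had 98.7, 467 and 969 CPM in light, against 0.811, 2.7 and 36.5 CPM in the dark, a log2 fold change of 6.61. NCU00583 overlaps cry by position and had at most 2.9 CPM, so its log2 fold change of 6.17 is uncertain. NCU05883, annotated as a xenobiotic monooxygenase, was higher by 5.43, NCU02663 by 5.13 and the endo-arabinase gene NCU00852 by 5.09, and vvd, con-6, cry and bli-4 complete the 10.

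The 10 genes with the largest negative log2 fold change were mostly unnamed, and in 9 of them the median in light was at most 3.79 CPM. NCU05112 (chromosome VI, 3711422 to 3712112) had 0, 0 and 0.0628 CPM in light, against 3.18, 12.5 and 22.4 CPM in the dark (log2 fold change -8.35, SE 0.543, adjusted p 4.72e-09). With no count in 5 of the 9 light libraries, the size of this log2 fold change is uncertain. NCU07036, a hypothetical protein gene above 1 CPM in every library, had 1.29, 2.21 and 4.24 CPM in light, against 31.2, 59.3 and 114 CPM in the dark (log2 fold change -4.78, SE 0.301, adjusted p 3.88e-09). NCU09798, annotated as an aryl-alcohol dehydrogenase, had 1.44, 3.79 and 5.6 CPM in light, against 18.7, 63.9 and 167 CPM in the dark (log2 fold change -4.44, SE 0.404, adjusted p 1.49e-07). The most abundant of the 10 in the dark was NCU02923, with 2.11, 17.9 and 40.2 CPM in light, against 103, 347 and 2082 CPM in the dark (log2 fold change -4.45, SE 0.592, adjusted p 7.92e-06). The other 6 were NCU04917, NCU07049, NCU01071, NCU09640 (annotated as an efflux pump), NCU07350 and NCU07088, with log2 fold changes from -7.36 to -4.34 and medians of at most 0.494 CPM in light. At such levels the sizes are uncertain too, and NCU04917 had no count in 8 and NCU07049 in 7 of the 9 light libraries.

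Called genes lay side by side in 55 runs of 3 or more neighbors with the same direction, 18 runs (76 genes) higher and 37 runs (131 genes) lower in light. These runs are a description of positions and were not tested. The longest run of lower genes held 8 neighbors on chromosome I from 8677529 to 8699834, from fbm-1, named for fruiting body maturation, to the polyketide synthase gene pks-6. pks-6 had 1.7, 16.9 and 42.6 CPM in light, against 84, 211 and 962 CPM in the dark, and fbm-1 had 40.5, 142 and 292 CPM in light, against 831, 1505 and 3685 CPM in the dark. The log2 fold changes of the 8 ran from -4.45 to -3.67, and each had no overlap between light and dark. The dark levels spread widely, and NCU02923 ran from 103 to 2082 CPM.

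The longest run of higher genes, 11 on chromosome VII from 3734171 to 3758279, covers NCU05761 to NCU05767 and holds an oligopeptide transporter gene and a zinc finger factor gene. NCU05766 had 211, 438 and 923 CPM in light, against 13.8, 84.6 and 372 CPM in the dark, and every one of the 11 overlapped between light and dark. A second run on the same chromosome, from 4157036 to 4172944, held 7 genes from NCU05883 to NCU05888, annotated as monooxygenases, a transporter, oxidoreductases and a noncoding RNA, with log2 fold changes of 4.10 for the transporter gene NCU05884 and 3.67 for the monooxygenase gene NCU05885. Here NCU05885 stood at 27.5, 104 and 172 CPM in light, against 4.66, 6.08 and 22 CPM in the dark. Another run, on chromosome I from 7917286 to 7935778, joins the cell wall protein gene ncw-6, al-2, NCU00584, NCU00583 and cry, so that a carotenoid gene and the cryptochrome gene lie within 19 kb of each other. pks-3, another polyketide synthase gene, and its neighbor ada-6, a regulator of development, were higher together on chromosome IV, with log2 fold changes of 3.64 and 2.15.

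**Figure D3:**
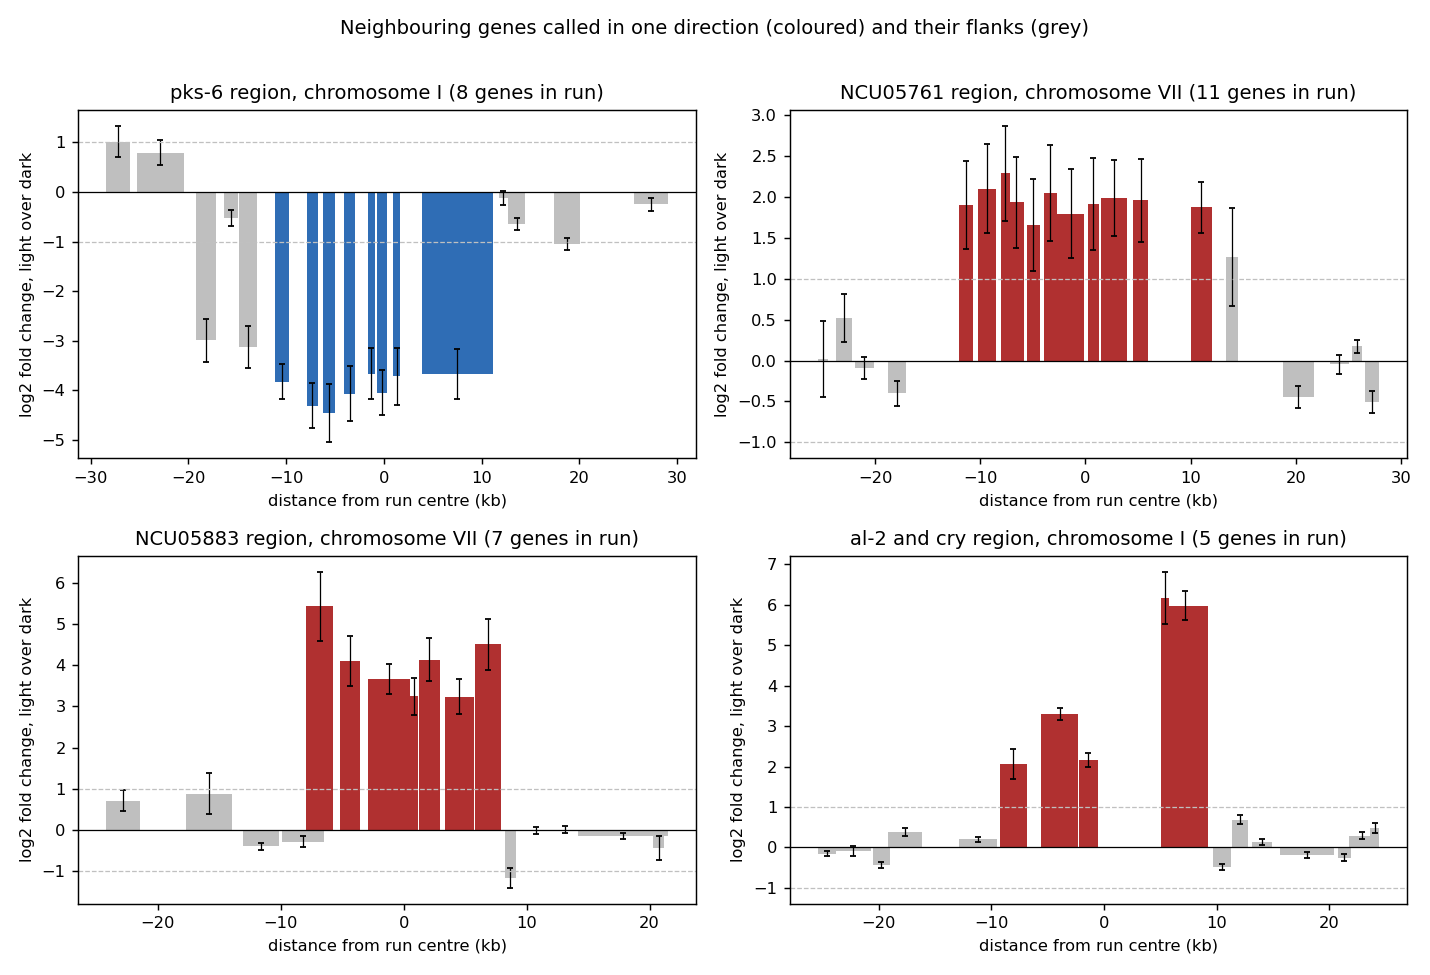
Log2 fold change of light over dark (bars, error bars SE) for genes in 4 runs of neighbors, drawn to scale by distance from the run's centre in kb. Red bars are called higher, blue bars called lower, and grey bars are flanking genes outside the run, some of which also passed. The 8 genes of the pks-6 region lie between -4.45 and -3.67, and the 5 of the al-2 and cry region between 2.07 and 6.17.

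On single days, 1093 genes (12.2%) were called on day -2, 432 (4.81%) higher and 661 (7.36%) lower in light. Day -1 gave 1303 genes (14.5%), 627 (6.98%) higher and 676 (7.52%) lower, and day 0 gave 1631 (18.2%), 746 (8.3%) higher and 885 (9.85%) lower. Without replicate 1 of day -2 in the dark, day -2 gave 1303 genes, 645 higher and 658 lower. Leaving out the libraries numbered 2 took the counts to 437 on day -2 and 675 on day -1. Of the 1407 genes called over the 3 days, 665 were called in the same direction on each day, 471 on 2 days, 193 on 1 day and 78 on none. The log2 fold change of vvd was 8.06 on day -2, 7.74 on day -1 and 7.46 on day 0, while con-6 had 5.10 on day -2, 6.35 on day -1 and 6.60 on day 0.

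The test of light by day called 38 genes (0.423%). The 3 with the widest range were NCU08037, with log2 fold changes of 1.53 on day -2, -0.75 on day -1 and -2.85 on day 0 (adjusted p 0.0477), NCU04914, with 1.06 on day -2, -0.66 on day -1 and -1.89 on day 0 (adjusted p 0.0425), and NCU02128, annotated as an alcohol dehydrogenase, with -0.24 on day -2, 1.83 on day -1 and 1.75 on day 0 (adjusted p 0.0425). NCU08037 had 233 ± 52.6, 316 ± 60.1 and 119.8 ± 14.9 CPM on days -2, -1 and 0 in light, against 80.6 ± 56.7, 531 ± 265 and 865 ± 512 CPM on these days in the dark (SD, n = 3). These calls rest on few libraries: without replicate 1 of day -2 in the dark edgeR called 0 genes, where 1238 had an unadjusted p under 0.05 and DESeq2 called 178. Leaving out the libraries of any 1 replicate number also left 0 calls by edgeR, with 430 to 1648 genes at an unadjusted p under 0.05 and 27 to 410 called by DESeq2. The 430, of 8975 genes tested without the libraries numbered 1, are no larger a share than the 0.05 that would fall there with no effect.

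The targeted gene served to check the labels of the mutant: ve-1 had 7.03, 11.3 and 19.3 CPM in light and 6.49, 7.29 and 9.94 CPM in the dark in the mutant, and 282, 358 and 501 CPM in light and 371, 399 and 431 CPM in the dark in the wild type. Whether light acted alike in the unfertilized wild type and the unfertilized ∆ve-1 mutant was tested as a difference of the log2 fold changes, wild type minus mutant, in one fit of 36 libraries. Of 9150 genes, 989 (10.8%) differed, 608 (6.64%) with the larger value in the wild type and 381 (4.16%) with the larger value in the mutant. Larger here means more positive with its sign, so a gene lowered by light in the mutant alone counts as larger in the wild type. The median difference over all genes was 0.12 with this scaling and 0.04 with DESeq2's size factors in edgeR, which gave 512 and 431 genes. In the same fit light called 1446 genes (15.8%) in the wild type and 952 (10.4%) in the mutant. Without the libraries numbered 2, only 547 genes differed between the strains.

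Of the structural genes of conidiation 2 of 5 differed between the strains, and of its regulators 3 of 7, against 10.8% of all genes. Genes of the light response and of conidiation were among those that differed, and in each of the 4 described here the mutant had the higher median in the dark. That does not hold for al-3, which also differed (1.66, adjusted p 0.0141). Its medians were 609 CPM in light and 110 CPM in the dark in the wild type, and 197 CPM in light and 67.6 CPM in the dark in the mutant. The log2 fold change of vvd was larger by 2.48 in the wild type (adjusted p 5.94e-04): in light it had 1327, 2876 and 3659 CPM in the wild type and 1276, 1818 and 3013 CPM in the mutant, and in the dark 9.06, 11.8 and 16.5 CPM in the wild type and 10, 51.9 and 123 CPM in the mutant. For cry the difference was 3.53 (adjusted p 1.38e-05), with 382, 670.3 and 1131 CPM in light and 5.84, 7.41 and 31.2 CPM in the dark in the wild type, and 772, 843 and 1099.6 CPM in light and 24.5, 186 and 322 CPM in the dark in the mutant. The difference for eas was 4.58 (adjusted p 2.44e-05), with 20985, 47152 and 74442 CPM in light and 87.3, 435 and 23606 CPM in the dark in the wild type, and 11612, 21796 and 38502 CPM in light and 5125, 9478 and 72131 CPM in the dark in the mutant. For fl, with a difference of 2.61 (adjusted p 2.88e-04), the mutant's dark values overlapped its light values, at 327, 491 and 557 CPM in light and 74.8, 271 and 761 CPM in the dark. Without replicate 1 of day -2 in the dark of the wild type the differences were 2.50 for vvd, 3.85 for cry, 5.50 for eas and 3.10 for fl. No single mutant library was left out in this way, although the highest mutant dark value of eas, 72131 CPM, lay above all its mutant light values.

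Among 9 genes of reactive oxygen nox-2 and sod-1 differed between the strains, both in the other direction, against 10.8% of all genes that differed. nox-2 and sod-1, lower in light in the wild type, had log2 fold changes of 0.15 and -0.15 in the mutant, and the differences were -1.56 (adjusted p 2.12e-05) and -1.09 (adjusted p 1.51e-04). The call of sod-1 was lost without the libraries numbered 3 (-0.91). nox-2 stood at 43.6, 51.9 and 60.1 CPM in light and 86.3, 109.8 and 295 CPM in the dark in the wild type, and at 46.3, 55.6 and 65.1 CPM in light and 38, 49.8 and 70.4 CPM in the dark in the mutant. frq, al-1 and con-10 did not pass this test, with differences of 0.21 (adjusted p 0.466), 1.48 (adjusted p 0.064) and -0.01 (adjusted p 0.998).

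Among genes that passed the test, the 3 largest differences with the higher value in the wild type were NCU00871, NCU00781 and NCU07765. NCU00871 had 1.45, 1.87 and 5.37 CPM in light and 5.36, 8.05 and 13.4 CPM in the dark in the wild type, and in the mutant no count in any of 9 light libraries and 1.04, 3.08 and 6.67 CPM in the dark. NCU07765 had 3.19, 11.9 and 108 CPM in light and 7.62, 33.8 and 161 CPM in the dark in the wild type, and in the mutant 0.191, 0.416 and 1.3 CPM in light and 1.09, 25.3 and 389 CPM in the dark. The 3 largest that passed in the other direction were NCU06938, which stayed under 5 CPM throughout, NCU03969 and NCU05126. NCU04917, NCU05112 and NCU07049 had fitted values of -8.06, -7.24 and -6.69, which depend on the handling of zeros in the mutant and did not pass (adjusted p 1.000). NCU03969, which is not called in the wild type (log2 fold change 0.47), had 6.07, 11.7 and 16.6 CPM in light and 3.83, 6.55 and 14.4 CPM in the dark there, and 9.45, 25.4 and 32.5 CPM in light and 0, 0.128 and 0.565 CPM in the dark in the mutant. By position it overlaps NCU17113, which had 832, 1105 and 1667 CPM in light and 0.954, 2.27 and 8.42 CPM in the dark in the mutant. Whether the counts of NCU03969 are separate from those of NCU17113 was not tested. NCU05126 had 1.98, 8.21 and 33.2 CPM in light and 24.6, 321 and 1535 CPM in the dark in the wild type, and at most 1.22 CPM in any mutant library.

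The response before fertilization was also set against that of the wild type afterwards, as a difference of mean log2 fold changes, before minus after, in one fit of 42 libraries. Of 9636 genes, 1289 (13.4%) differed, 398 (4.13%) with the larger value before and 891 (9.25%) with the larger value after, again by sign and not by strength. In that fit light called 1522 genes (15.8%) before fertilization, 660 (6.85%) higher and 862 (8.95%) lower, and 704 genes (7.31%) after it, 636 (6.6%) higher and 68 (0.706%) lower. Genes lower in light were more than 10 times as many before fertilization as after it, while the numbers of higher genes lay close together. The tissue after fertilization contains growing fruiting bodies and receives conidia of the other parent, so stage and tissue cannot be told apart.

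The 10 leading genes that were higher before fertilization were all above a log2 fold change of 3.5 afterwards too, from 3.55 for NCU00583 to 6.81 for NCU17113. vvd had 767, 1328 and 1992 CPM in light and 8.08, 18.8 and 78.7 CPM in the dark after fertilization, and its log2 fold change was larger before it by 1.83 (adjusted p 2.30e-07). bli-4 did not pass the test of the difference (0.22, adjusted p 0.792). The 10 leading genes that were lower before fertilization ran afterwards from -1.58 for NCU07049 to 2.50 for NCU09640. NCU07036 had 2.93, 3.89 and 5.9 CPM in light and 2.4, 4.64 and 11.5 CPM in the dark after fertilization, and the difference in its log2 fold change was -4.40 (adjusted p 2.87e-11). All 20 had been picked for their values before fertilization, which favors larger values there.

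eas showed the widest difference of stage among the list genes. Its 19455, 44120.2 and 67831 CPM in light and 85, 427 and 22759.6 CPM in the dark before fertilization stood against 305, 1441 and 4768 CPM in light and 61.8, 1007 and 4810.1 CPM in the dark after it, a difference in log2 fold change of 5.32 (adjusted p 2.40e-06) and 6.30 without replicate 1 of day -2 in the dark. NCU09859, a metalloprotease gene, differed by 5.89 (adjusted p 7.74e-07), with 15.9, 54.6 and 103 CPM in light and 0.179, 0.786 and 77.6 CPM in the dark before fertilization, and 0, 0.36 and 0.791 CPM in light and 0.417, 0.943 and 1.4 CPM in the dark after it. Its highest dark value before fertilization lay within the light range, the day -2 log2 fold change was 1.36 (adjusted p 0.322), and without replicate 1 of day -2 in the dark the difference was 7.17. NCU00747 also lay among the 3 largest that passed, at no more than 1.41 CPM before fertilization. In the other direction, NCU04917, NCU08257 and NCU09640 had the most negative values that passed, each with a light median of at most 0.0558 CPM before fertilization. NCU08257 had 0, 0 and 0.0541 CPM in light and 0, 0.392 and 2.51 CPM in the dark before it, and 0.485, 1.00 and 9.04 CPM in light and 0.199, 0.539 and 1.67 CPM in the dark after it. T, lower in light before fertilization, had a log2 fold change of -0.38 afterwards (difference -2.48, adjusted p 3.51e-05). fmf-1, a regulator of female and male fertility, was the reverse case, with log2 fold changes of -0.22 before and 2.16 after (difference -2.37, adjusted p 1.19e-04).

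**Figure D4:**
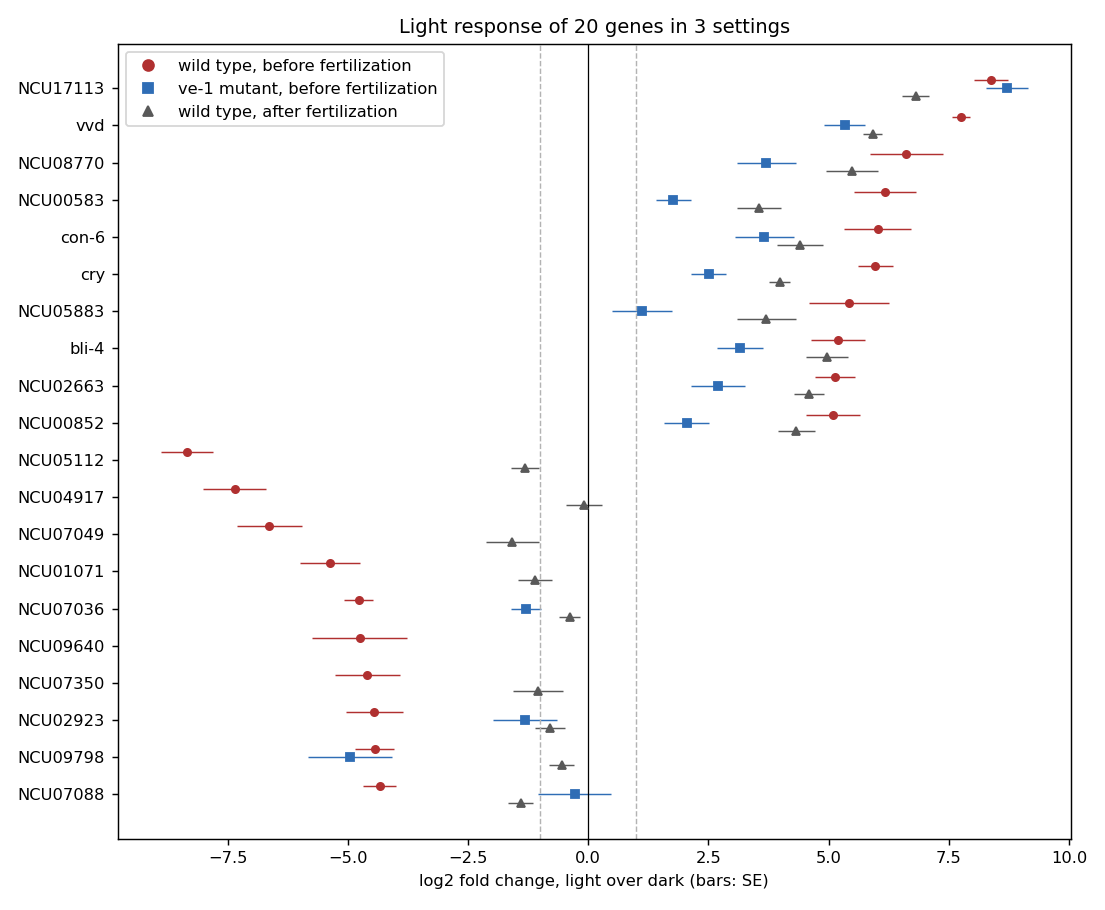
Log2 fold change of light over dark (points, bars SE) of the 10 non-overlapping genes with the largest positive and the 10 with the largest negative values in unfertilized wild type. Red circles are the wild type before fertilization, blue squares the ∆ve-1 mutant before fertilization and grey triangles the wild type after it. A square or triangle is left out where a group of 3 libraries in that setting had no count. Red circles are all drawn, although NCU04917, NCU07049 and NCU00583 had such a group, so their values depend on how zeros are handled. The 10 higher genes keep grey triangles between 3.55 and 6.81, and the lower genes with a grey triangle lie between -1.58 and -0.09.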

How the data were processed

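RNA was measured by sequencing in all 84 libraries of the series, of which the 18 unfertilized wild-type libraries carry the comparison. The authors trimmed reads with fastp, checked them with FastQC, aligned them to the NC12 assembly with STAR (2.7) and deposited raw counts per gene, made with featureCounts by strand. The deposited table holds 10590 genes, of which 685 had no count in the 18 libraries. Sequencing depth was 15.3 to 17.6 M counts per library.

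Counts were scaled by TMM, filtered with filterByExpr (8986 genes left) and tested in edgeR 4.0.16 (R 4.3.3) by the quasi-likelihood F test, with the day as a block for the main comparison and with cell means for single days, light by day, light by strain and light by stage. SE was the absolute log2 fold change over the square root of F. DESeq2 1.42.0, its size factors, upper-quartile scaling, no filter, a fit of all 84 libraries, cell means, adjusted p alone, a replicate block and left-out replicates, libraries and days were the alternatives. The scripts were first tested on simulated data.

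Symbols came from the RefSeq table of NC12 (1118 of 10590 genes) and descriptions from the study's annotation. Genes are named by rule: the 10 largest and 10 smallest log2 fold changes among called genes with no overlap, the members of the lists, and the 3 largest interactions in each direction (light by day: the 3 widest). The runs of neighbors were looked at after the values were seen. The members, lists and tests were chosen with earlier results of these data known. In the velvet list, 2 members were dropped because no table used here gives those symbols.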

Additional observations from a re-analysis of the deposited data

Results flagged for a closer look

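The results here are those in which the effect of light differed between strains, stages or days by a test of the difference itself. Groups of 3 libraries were too small to look for single outlying values. The genes called were 989 for strain, 1289 for stage and 38 for day, and no explanation was tested for any of them.

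Between the unfertilized wild type and the unfertilized ∆ve-1 mutant, differences are log2 fold changes of light over dark, wild type minus mutant. Among genes that passed, those with the widest values were NCU00871 (6.90), NCU00781 (5.74) and NCU07765 (5.65), and in the other direction NCU06938 (-6.39), NCU03969 (-6.02) and NCU05126 (-6.004). The value of NCU00871 depends on how zeros are handled, since all 9 mutant light libraries had no count, and NCU06938 and NCU00781 also had a group of 3 libraries without counts. NCU03969 overlaps NCU17113 by position. Light-response genes with larger values in the wild type were vvd (2.48), cry (3.53), csp-1 (1.24), al-3 (1.66) and bli-4 (2.10). In their lists, 2 of 9 photoreceptor and light signaling genes, 1 of 4 clock genes and 1 of 5 carotenoid genes differed. Of 9 genes named for blue light or the clock 3 differed, in both directions. Of 5 structural genes of conidiation 2 differed, con-6 at 2.41 and eas at 4.58. Of its 7 regulators 3 differed, fl at 2.61, acon-3 at 2.18 and csp-2 at 1.24. The other conidiation genes did not pass, and 10.8% of all genes differed. The methyltransferase gene lae-1 (1.26) and the female development genes asm-1 (1.28) and bek-2 (1.45) also had more positive values in the wild type. Their medians in the mutant were lower in light than in the dark, for bek-2 at 141 against 333 CPM. In the wild type bek-2 had 412 CPM in light and 362 CPM in the dark. More positive values in the mutant, which need not mean a stronger response there, were found for ccg-1 (-1.07), ccg-6 (-1.61), poi-2 (-3.10), asd-1 (-1.28), nox-2 (-1.56) and sod-1 (-1.09). The medians of nox-2 were 51.9 CPM in light and 109.8 CPM in the dark in the wild type, and 55.6 and 49.8 CPM in the mutant. Those of sod-1 were 213 and 537 CPM in the wild type, and 300 and 323 CPM in the mutant. Leaving out the libraries of 1 replicate number ended the call of con-6, lae-1, poi-2, csp-1, al-3, bli-4, acon-3, csp-2, asm-1, asd-1, ccg-1 and sod-1 at least once, and of vvd, cry, ccg-6, eas, fl, bek-2 and nox-2 never. Without the libraries numbered 3 the differences were 0.75 for al-3, 0.72 for csp-2, 0.60 for lae-1, 0.73 for asm-1 and -0.28 for asd-1. The dark values of asd-1 in the wild type had a median of 31.7 CPM and a highest value of 337 CPM. For al-3 and csp-2 the dark values in the mutant had medians of 67.6 and 151 CPM and highest values of 1064 and 727 CPM.

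poi-2 was variable in both strains, with the lowest median in the dark in the mutant. It had 1442, 3929 and 6721 CPM in light and 103, 909 and 5339.6 CPM in the dark in the wild type (lowest, median and highest of 9), and 320.3, 866 and 1953 CPM in light and 1.03, 16.1 and 288 CPM in the dark in the mutant. Its difference had an adjusted p of 0.0122. For lae-1, 17.1, 21.2 and 25.1 CPM in light and 20.9, 27 and 37.2 CPM in the dark in the wild type stood against 34.2, 48.4 and 73.3 CPM in light and 34.7, 142 and 408 CPM in the dark in the mutant.

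Before against after fertilization in the wild type, differences are before minus after. Among genes that passed, the widest were NCU09859 (5.89), eas (5.32) and NCU00747 (4.84), and in the other direction NCU04917 (-7.94), NCU08257 (-7.43) and NCU09640 (-7.30). Except for NCU09859 and eas, each had a group of 3 libraries without counts, so that the fitted values depend on how zeros are handled. Larger values before fertilization were found for vvd (1.83), cry (1.99), al-2 (1.26), al-3 (1.95), con-6 (1.61), con-13 (2.52), acon-3 (2.47), csp-2 (1.14) and bek-1 (1.498). Larger values after it were found for phy-2 (-1.30), ccg-16 (-1.40), mfa-1 (-1.36), mat A-1 (-1.59), fmf-1 (-2.37), asd-1 (-1.38), T (-2.48), cat-3 (-1.14), sod-1 (-1.16) and nit-3 (-1.35). The calls of con-6, csp-2, mfa-1, asd-1, cat-3 and nit-3 were lost when the libraries of 1 replicate number were left out. Without those numbered 3 the differences were -0.37 for asd-1, -0.50 for cat-3, -0.82 for nit-3, -0.95 for mfa-1 and 0.92 for csp-2.

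Across the 3 days, the range of the log2 fold change was 4.38 for NCU08037, 2.94 for NCU04914, 2.06 for NCU02128 and 1.37 for frq. All of these calls were lost in edgeR without replicate 1 of day -2 in the dark, and without the libraries of any 1 replicate number.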

How the results depend on the processing

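Over 119 named genes and their alternatives, 3620 values kept their direction and their side of the thresholds, 31 values in 15 genes that were not called changed sign without being called, 33 values in 9 genes (poi-2, asd-1, wc-1, nit-3, ccg-6, mfa-1, phy-2, gpr-1 and ccg-14) newly passed, 3 calls were lost and no call reversed. No median of a list moved by more than the spread. On the adjusted p alone the counts were 5446 over the 3 days, 2476, 3427 and 4069 on days -2, -1 and 0, 65 for light by day, 3080 for strain and 4901 for stage, since the fold threshold is then dropped.

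Leaving out the libraries of 1 replicate number at a time gave 1306 to 1502 genes over the 3 days, 437 to 1023 on day -2, 675 to 1529 on day -1, 1166 to 1593 on day 0, 0 to 0 for light by day, 547 to 956 for strain and 1133 to 1336 for stage. Leaving out 1 of the 18 libraries gave 1373 to 1509 genes. Light by day called 195 genes with DESeq2, 97 with a replicate block and 0 without replicate 1 of day -2 in the dark, the last an alternative chosen after seeing the data, as were its values of 1303 genes on day -2, 1038 for strain and 1362 for stage. Of the 989 genes that differed between strains 61.5% had the larger value in the wild type, against 54.3% with DESeq2's size factors and 49.8% without the libraries numbered 1. Of the values of single-gene interactions under alternatives, 370 kept their call and 30 lost it, all when the libraries of 1 replicate number were left out and none reversed. Among them, NCU06938 (-6.18) and NCU04917 (-7.24) without the libraries numbered 2 and NCU00781 (5.11) without those numbered 3 no longer passed.

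The replicate block gave 1400 genes over the 3 days, 1157, 1358 and 1669 on days -2, -1 and 0, 1009 for strain and 1283 for stage. Light and dark libraries of the same number on a day deviated together with r over 0.1 across genes in 8 of 9 pairs (-0.19 to 0.32), against 2 of 18 pairs of different number (-0.37 to 0.30). This leans toward a pairing by number, but 1 pair (replicate 3 of day -1) fell at -0.19, the labels name no shared batch or day, and so the numbers were not taken to pair the libraries.

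With about 16 M counts a library, genes under 1 CPM rest on few counts. RNA came from pooled tissue, so variation between cultures is only partly seen, and the scraped surface mixes tissues whose shares were not measured.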

Other observations

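Some called genes outside the lists were looked at after their values were seen and are given as values. They were picked because they were called, so they say nothing of the pathways they belong to. The sulfate permease gene cys-14 had 119, 366 and 586 CPM in light, against 19.1, 30.1 and 62.4 CPM in the dark (lowest, median and highest of 9; log2 fold change 3.43, SE 0.298, adjusted p 9.80e-08 by edgeR). ars-1, the arylsulfatase gene, had 9.96, 25 and 44.2 CPM in light, against 0.374, 0.715 and 5.09 CPM in the dark (log2 fold change 4.06, SE 0.479, adjusted p 2.29e-06 by edgeR). cys-16, cys-2, cys-11 and scon-2, a regulator of the sulfur circuit, had log2 fold changes of 2.73, 1.97, 1.41 and 1.87, and in each of the 6 genes the 9 light values lay above the 9 dark values.

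The gene of fructose-bisphosphate aldolase (fba) had 498, 745 and 938 CPM in light, against 1416, 1762 and 2188 CPM in the dark (log2 fold change -1.26, SE 0.118, adjusted p 1.97e-07 by edgeR), with no overlap, and that of phosphoglycerate kinase (pgk) was lower by a log2 fold change of -1.05, with overlap. pho-3, a phosphatase gene, had a log2 fold change of -4.23, and mtr, which encodes an amino acid transporter, one of 2.47.

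By kind of gene, 19 of 155 tested noncoding RNA genes were called higher and 20 lower in light, and 597 and 763 of 8800 protein-coding genes. Over all genes tested, 6.87% were called higher and 8.79% lower.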
